A study of Mus musculus with 6 samples.

Results

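The genes described here encode the DNA-binding factors that drive red cell differentiation and the adaptors that hold them together: Gata1, Gata2, Zfpm1, Tal1, Tcf3, Lmo2, Ldb1, Cbfa2t3, Klf1 and Nfe2. They are 10 of the 23896 genes with a symbol in the deposited counts, and each is represented by its RefSeq transcript with the highest mean count over all libraries. All 10 had counts in every library and passed the filter on low counts, which left 12381 genes in the test. The choice of transcript used no difference between days, but the 10 genes were chosen with earlier results of these data known.

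RNA was sequenced from MEL cells, an established mouse erythroleukemia line blocked at an early erythroid stage, which 2% DMSO releases into terminal differentiation. Cells were collected at day 0, before induction, and after 2 and 4 days of DMSO, with 2 biological replicates per day and 6 libraries in all. No culture kept without DMSO for 2 or 4 days was analysed here, so the effect of DMSO and the effect of time in culture cannot be told apart. A bulk library averages over its cells, and fewer cells of a type and less RNA per cell cannot be told apart in it.

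GATA1 binds GATA sites in the genes of red cells, megakaryocytes and mast cells, and FOG1, the product of Zfpm1, binds GATA1 rather than DNA and is needed for much of what GATA1 activates and represses. TAL1 pairs with an E protein such as the product of Tcf3 on an E-box, and LMO2 and LDB1 bridge this pair to a GATA factor to form a single complex, to which the corepressor ETO2, encoded by Cbfa2t3, can be added. KLF1 binds CACCC elements of the adult beta-globin promoter and of many other red cell genes, and p45 NF-E2, encoded by Nfe2, pairs with a small MAF protein on the globin locus control regions.

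The promoters show which of these sites stand next to the factors' own starts. RefSeq promoter windows of GRCm38.p6 matched 8 of the 10 genes, in 13 windows, and the 250 bases before each start were searched on both strands. The motifs were a GATA word (AGATAA itself, TGATAA with a T in first place, or either with a G at the end, namely AGATAG and also TGATAG), the E-box CAGATG preferred by TAL1 with E proteins, the CACCC-type word CCNCNCCC, whose matches may overlap each other, and the core NF-E2 word TGAGTCA. Promoters of Gata1, Klf1 and Tal1 are shown because these are the central DNA-binding factors, and that of Zfpm1 because its transcript, like that of Tal1, rose at both steps. Capitals mark every match, and the Klf1 stretch ends where the GENCODE model of its transcript begins, with the last match kept whole.
Gata1, chrX:7967911-7968160, minus strand: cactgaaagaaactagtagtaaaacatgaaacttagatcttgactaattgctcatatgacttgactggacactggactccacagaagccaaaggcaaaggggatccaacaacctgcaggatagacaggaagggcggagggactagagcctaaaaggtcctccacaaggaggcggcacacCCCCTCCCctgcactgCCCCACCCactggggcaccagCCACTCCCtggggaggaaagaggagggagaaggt
Klf1, chr8:84901732-84901928, plus strand: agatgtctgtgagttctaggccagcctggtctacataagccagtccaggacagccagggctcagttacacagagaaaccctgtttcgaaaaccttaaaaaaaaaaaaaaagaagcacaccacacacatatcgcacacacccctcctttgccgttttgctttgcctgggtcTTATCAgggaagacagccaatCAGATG
Tal1, upstream start, chr4:115056176-115056425, plus strand: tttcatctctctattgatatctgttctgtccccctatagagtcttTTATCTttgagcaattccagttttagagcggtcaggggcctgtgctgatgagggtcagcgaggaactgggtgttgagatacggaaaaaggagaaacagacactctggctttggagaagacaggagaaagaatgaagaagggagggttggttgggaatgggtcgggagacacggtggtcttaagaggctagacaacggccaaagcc
Tal1, start of the transcript used, chr4:115057561-115057810, plus strand: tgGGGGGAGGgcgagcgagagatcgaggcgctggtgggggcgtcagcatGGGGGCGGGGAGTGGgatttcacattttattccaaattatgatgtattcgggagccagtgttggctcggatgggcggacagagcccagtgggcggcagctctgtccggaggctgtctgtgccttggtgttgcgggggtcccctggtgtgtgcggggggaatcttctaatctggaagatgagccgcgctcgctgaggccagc
Zfpm1, chr8:122281891-122282140, plus strand: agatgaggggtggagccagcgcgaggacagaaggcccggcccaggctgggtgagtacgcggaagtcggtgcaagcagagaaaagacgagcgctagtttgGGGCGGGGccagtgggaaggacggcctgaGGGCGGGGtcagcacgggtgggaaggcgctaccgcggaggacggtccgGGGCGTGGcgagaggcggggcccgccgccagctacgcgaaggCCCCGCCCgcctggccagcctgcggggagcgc

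Gata1 had 3 CACCC-type matches and no GATA word in its 250 bases. Klf1 held a GATA word 80 bases and the E-box 59 bases before its RefSeq start, and the upstream Tal1 start held 1 GATA word, whereas the other Tal1 start and Zfpm1 held 4 CACCC-type matches each. In the windows of that Tal1 start and of Zfpm1, no match held CACCC itself, since the word also takes stretches such as CCCCGCCC. Over the 13 windows, a GATA word was present in 4, the CAGATG E-box in 2, the CACCC-type word in 11 and the NF-E2 word in 0. Among 32851 promoter windows of the same length, 26.5% held a GATA word, 14.4% the E-box, 45.9% the CACCC-type word and 4.46% the NF-E2 word. These matches describe letters, not occupied sites.

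The libraries held 35294930 to 53899476 counts on transcripts, which gave each member between 174 and 29572 counts in a library. Counts are given below as CPM, the read count per unit of sequencing depth in its usual scale, with library sizes adjusted by the TMM method of edgeR, and differences as log2 fold changes with a standard error from edgeR's quasi-likelihood fit over all 6 libraries. A difference was called at an adjusted p below 0.05 (Benjamini-Hochberg over 18351 transcripts). Of 8 erythroid marker genes, 7 were measured and 7 were higher at day 4 than at day 0, and their summed level went from between 483 and 543 CPM at day 0 to between 16930 and 18980 CPM at day 4. Genes of megakaryocytes, which use most of these factors too, summed to between 295 and 305 CPM at day 0, 233 and 259 at day 2 and 567 and 640 at day 4, most of it from Itga2b. Of 9 megakaryocyte markers tested, 4 were higher and 5 lower at day 4 than at day 0. Among all genes, 35.5% were called higher and 36.4% lower in this comparison. The part of megakaryocytes in the results below was not tested. Granulocyte or macrophage markers summed to 10.7 to 16.5 CPM, with Elane, Ctsg, Csf3r and Itgam at or under 3 counts in every library. Most of the sum came from Prtn3, at 12.2, 13.9 and 9.73 mean CPM on days 0, 2 and 4. Of 5 of these markers tested, 1 (Lyz2) was higher and 2 lower at day 2 than at day 0, beside 31% and 31.5% of all genes. Lymphocyte markers summed to at most 0.172 CPM in any library, with 6 of 7 at or under 3 counts in every library.

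The transcripts of the 10 factors did not move in one direction. Between day 0 and day 2, 8 of 10 were called, 2 higher (Tal1 and Zfpm1) and 6 lower (Lmo2, Nfe2, Gata2, Klf1, Cbfa2t3 and Tcf3). With library sizes scaled by total counts alone, 7 were called, 4 higher, Gata1 and Ldb1 now among them, and 3 lower (Lmo2, Nfe2 and Gata2). Over all genes tested, 62.5% were called in this comparison, 31% higher and 31.5% lower, so a call by itself is the rule here rather than the exception. Between day 2 and day 4, 7 of 10 were called, 5 higher (Gata2, Zfpm1, Nfe2, Tal1 and Ldb1) and 2 lower (Lmo2 and Tcf3), whereas 30.3% of all genes were called, 14% higher and 16.2% lower. For day 4 against day 0, 8 of 10 were called, 4 in each direction, beside 71.8% of all genes, 35.5% higher and 36.4% lower. The median log2 fold change of the 10 was -0.33, 0.30 and -0.07 in these comparisons, against 0.01, 0.00 and -0.02 over all genes. Scaling by total counts alone moved the median of all genes to 0.21, -0.09 and 0.10 and changed the split of all genes in the first comparison to 40.4% higher and 23.3% lower. Leaving out 1 library at a time, which leaves a day with a single library assumed to vary like the others, gave 5 to 8, 1 to 8 and 6 to 9 factors called. The lowest of these, 1 factor between day 2 and day 4, came without day 2 replicate 1.

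**Figure D1:**
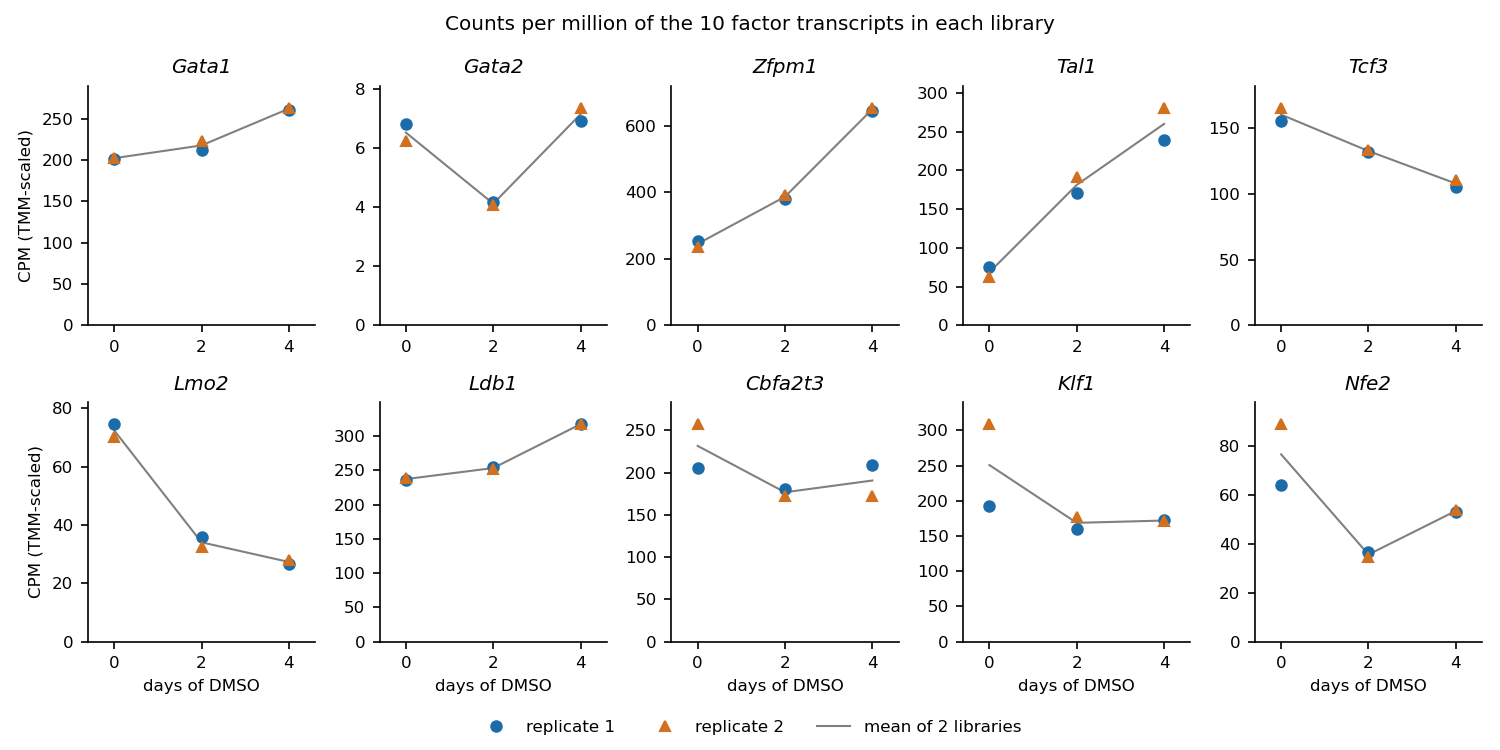
CPM of the 10 factor transcripts (vertical axes from 0, each with its own scale) by days of DMSO, with a symbol for each library and a line through the mean of 2 libraries. Tal1 and Zfpm1 climb over both steps, Lmo2 and Tcf3 fall, Gata2 and Nfe2 are lowest at day 2, and the day 0 libraries of Klf1, Nfe2 and Cbfa2t3 lie apart.

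Called at both steps in one direction were Tal1 and Zfpm1, higher, and Tcf3 and Lmo2, lower. Among all genes, 8.33% were called higher and 9.05% lower at both steps. The second steps of Lmo2 and Tcf3 lay at the threshold, as given with those genes. Gata2 and Nfe2 were lower at day 2 and then higher at day 4, and both of their steps were called.

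**Figure D2:**
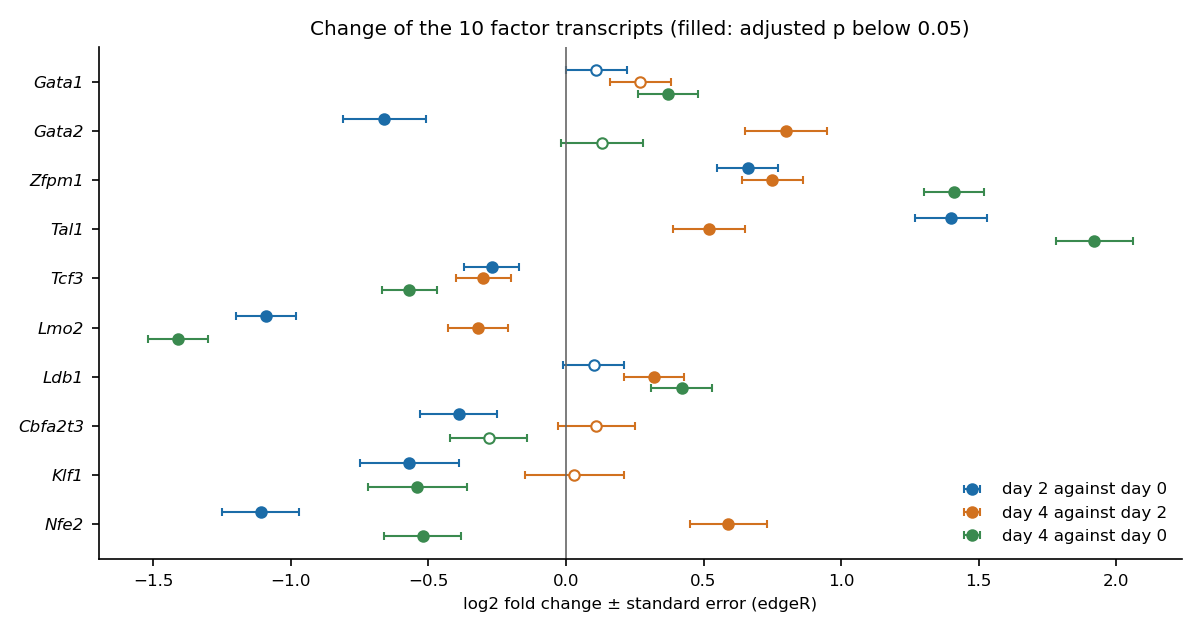
Log2 fold change with its standard error (horizontal axis) for each of the 10 factor transcripts in the 3 comparisons of days, with filled symbols at an adjusted p below 0.05. Tal1 reaches 1.92 and Lmo2 and Zfpm1 -1.41 and 1.41 for day 4 against day 0, whereas Gata1 and Ldb1 stay below 0.5 in all 3 comparisons.

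Gata1 (NM_008089; chrX:7959260-7967910, GRCm38, minus strand, 6 exons) gave 202 and 203 CPM at day 0, 212 and 223 CPM at day 2, and 261 and 263 CPM at day 4. Both day 4 libraries were above the other 4, and the day 2 libraries were above both day 0 libraries by a few percent. Neither step passed the test, with log2 fold changes of 0.11 ± 0.11 (adjusted p = 0.399, edgeR) and 0.27 ± 0.11 (adjusted p = 0.0757), whereas the sum of both did, at 0.37 ± 0.11 (adjusted p = 0.00772), a 1.30-fold rise. The second step was called by DESeq2, at 0.28 (adjusted p = 0.0333), in a fit of the 2 days alone (adjusted p = 0.0207) and without either day 0 library (adjusted p = 0.0208 and 0.0215), and the first with total counts, at 0.30 (adjusted p = 0.0296). Without day 4 replicate 2 the net change was 0.36, with an adjusted p of 0.05 that just missed the threshold. In size, 71.8% of all genes changed at least as much between day 0 and day 4.

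Gata2 (NM_008090; chr6:88198334-88207030, plus strand, 6 exons), the GATA factor of stem and progenitor cells and of mast cells, had the lowest level per length of the 10 on every day. It gave 6.81 and 6.23 CPM at day 0, 4.17 and 4.07 CPM at day 2, and 6.93 and 7.36 CPM at day 4, from 174 to 333 counts per library. The day 2 libraries lay below all others, and the day 0 and day 4 libraries did not overlap but differed by less than their standard error. Gata2 was lower at day 2 by 0.66 on the log2 scale (log2 fold change -0.66 ± 0.15, adjusted p = 0.00305) and higher again by day 4, at 0.80 ± 0.15 (adjusted p = 0.00356), which left 0.13 ± 0.15 between day 4 and day 0 (adjusted p = 0.434). Without day 2 replicate 1, the second change was 0.81 with an adjusted p of 0.0525. Markers of mast cells or basophils, cells that use Gata2, did not follow this course. Their summed level was between 61.7 and 66.3 CPM at day 0, almost all of it from Hdc, 2.20 to 2.44 CPM at day 2 and 1.33 to 1.46 CPM at day 4. Of 7 markers tested, 5 were lower and 1 higher at day 4 than at day 0, beside 36.4% and 35.5% of all genes. Another 3 markers (Tpsb2, Tpsab1 and Mcpt8) were at or under 3 counts in every library. The part of such cells in the Gata2 level was not tested.

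Zfpm1 (NM_009569; chr8:122282141-122337251, plus strand, 10 exons) encodes FOG1 and had the highest level per length of the 10 at day 4. It gave 254 and 237 CPM at day 0, 380.1 and 393 CPM at day 2, and 645 and 653 CPM at day 4. The 3 days did not overlap, and the replicates of each day lay close together. It rose by 0.66 ± 0.11 on the log2 scale (adjusted p = 0.000454, edgeR) and then by 0.75 ± 0.11 (adjusted p = 0.00105), 2.65-fold over 4 days (log2 fold change 1.41 ± 0.11, adjusted p = 1.14e-06). Both steps were called under all alternatives except the requirement of a log2 fold change of at least 1. A rise of this size over 4 days was seen in 9.99% of all genes.

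Tal1 (NM_001287388; chr4:115057811-115071228, plus strand, 5 exons) had the largest change of the 10. Its libraries gave 75.0 and 62.4 CPM at day 0, 170.3 and 192 CPM at day 2, and 239 and 281 CPM at day 4. All libraries of a later day were above all libraries of an earlier one. The rise was 2.64-fold in the first 2 days (log2 fold change 1.40 ± 0.13, adjusted p = 7.59e-06), 1.44-fold in the next 2 (0.52 ± 0.13, adjusted p = 0.013) and 3.79-fold in all (1.92 ± 0.14, adjusted p = 4.37e-07). The second step missed the threshold without day 2 replicate 1 (0.43, adjusted p = 0.171), without day 2 replicate 2 (0.61, adjusted p = 0.0583) and without day 4 replicate 2 (0.40, adjusted p = 0.142). In the first step, 6.74% of all genes rose at least as much. The deposited counts also list a transcript from the upstream start, NM_011527, whose total differed by 0.470%, so the counts do not tell the 2 starts apart.

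Tcf3 (NM_001164150; chr10:80409514-80433637, minus strand, 19 exons), whose products E12 and E47 are among the E protein partners of TAL1, moved the other way. It gave 155 and 166 CPM at day 0, 132 and 134 CPM at day 2, and 105 and 111 CPM at day 4, with no overlap between days. Each step was small, at -0.27 ± 0.10 (adjusted p = 0.0362) and -0.30 ± 0.10 (adjusted p = 0.0475), and together they gave a 1.49-fold fall (log2 fold change -0.57 ± 0.10, adjusted p = 0.000421). Of 15 alternatives, the first step missed the threshold under the limit on size and 8 others, among them total counts (-0.07, adjusted p = 0.546), and the second under the limit on size and 8 others, among them each of the day 2 and day 4 libraries left out (adjusted p = 0.157 to 0.222). The net fall was called under all but the limit on size.

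Lmo2 (NM_001142336; chr2:103957995-103981878, plus strand, 4 exons), the LIM-only bridge of the complex, gave 74.6 and 70.2 CPM at day 0, 35.7 and 32.3 CPM at day 2, and 26.6 and 28.0 CPM at day 4. The days did not overlap. It fell 2.13-fold between day 0 and day 2 (log2 fold change -1.09 ± 0.11, adjusted p = 1.07e-05) and 2.65-fold over 4 days (-1.41 ± 0.11, adjusted p = 9.18e-07), a net fall called under all 15 alternatives. The second step, at -0.32 ± 0.11, had an adjusted p of 0.0498 and was lost with DESeq2 (0.0541), with relative log expression factors (0.0554), with the replicate number as a block (0.0571), without the filter on low counts (0.052) and without each of the 4 libraries of day 2 and day 4 (adjusted p = 0.112 to 0.334). In the first step, 10.5% of all genes fell at least as much.

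Ldb1 (NM_010697; chr19:46032594-46039621, minus strand, 11 exons), the dimerizing adaptor that also bridges distant enhancers to promoters, gave 236 and 239 CPM at day 0, 255 and 252 CPM at day 2, and 318 and 317 CPM at day 4. The day 4 libraries lay above the rest, and the day 2 libraries stood above both day 0 libraries. Its course resembled that of Gata1. The first step was 0.10 ± 0.11 (adjusted p = 0.452), the second 0.32 ± 0.11 (adjusted p = 0.0381), and the net rise 0.42 ± 0.11 (adjusted p = 0.00401), or 1.34-fold. With total counts the first step was 0.29 and was called (adjusted p = 0.035). The call of the second step was lost with total counts (0.24, adjusted p = 0.116) and without each of the 4 libraries of day 2 and day 4 (adjusted p = 0.145 to 0.217).

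Cbfa2t3 (NM_009824; chr8:122625141-122699109, minus strand, 12 exons) gave 206 and 258 CPM at day 0, 181 and 173 CPM at day 2, and 209 and 173 CPM at day 4. The day 0 and day 2 libraries did not overlap, but a day 4 library was above the lower day 0 library and the other was level with day 2. The first step was called at -0.39 ± 0.14 (adjusted p = 0.029), whereas the second (0.11 ± 0.14, adjusted p = 0.583) and the net change (-0.28 ± 0.14, adjusted p = 0.088) were not. The first call was lost without day 0 replicate 2 (-0.23, adjusted p = 0.114), without either day 2 library (adjusted p = 0.104 and 0.168) and with total counts (-0.19, adjusted p = 0.25). Without day 0 replicate 1, the net change was called, at -0.44 (adjusted p = 0.00361).

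Klf1 (NM_010635; chr8:84901928-84905291, plus strand, 3 exons) gave 192 and 309 CPM at day 0, 159.9 and 177 CPM at day 2, and 173 and 171 CPM at day 4. The day 0 libraries lay above all others, but replicate 2 was above replicate 1 by 0.68 on the log2 scale, and replicate 1 was closer to the later days than to replicate 2. Only 3.48% of all genes differed as much between these 2 libraries, where the median size was 0.18. With both, Klf1 was lower at day 2 (log2 fold change -0.57 ± 0.18, adjusted p = 0.0176) and at day 4 (-0.54 ± 0.18, adjusted p = 0.0188) than at day 0, and the difference between day 2 and day 4 was 0.03 ± 0.18 (adjusted p = 0.924). Without day 0 replicate 2 the falls were -0.20 (adjusted p = 0.122) and -0.17 (adjusted p = 0.156). The fall to day 2 was also lost without either day 2 library (adjusted p = 0.0628 and 0.132) and with total counts (-0.37, adjusted p = 0.0836), and the net fall without either day 4 library (adjusted p = 0.0645 and 0.0673).

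Nfe2 (NM_008685; chr15:103248212-103255439, minus strand, 3 exons) gave 64.0 and 88.9 CPM at day 0, 36.4 and 34.7 CPM at day 2, and 53.1 and 53.7 CPM at day 4. The 3 days did not overlap, day 2 being lowest, and day 0 replicate 2 was again above replicate 1, by 0.47 on the log2 scale, a gap that 10.1% of all genes reached. Nfe2 fell 2.15-fold by day 2 (log2 fold change -1.11 ± 0.14, adjusted p = 6.64e-05) and rose 1.5-fold from there to day 4 (0.59 ± 0.14, adjusted p = 0.0112), ending 1.43-fold below day 0 (-0.52 ± 0.14, adjusted p = 0.00652). Without day 0 replicate 2 the net fall was -0.27, the smallest among the alternatives, and still called. The rise after day 2 missed the threshold without day 2 replicate 1 (adjusted p = 0.0953), day 2 replicate 2 (0.103) or day 4 replicate 2 (0.0688).

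Levels of different genes were compared as CPM per kilobase of the exons of the transcript in GENCODE vM21, as a description with no test. At day 0, Klf1 was highest at 164 ± 54.1 CPM per kilobase (SD, n = 2), followed by Gata1 at 106 ± 0.490, Ldb1 at 103 ± 1.01 and Zfpm1 at 72.3 ± 3.55. Tcf3 (54.5 ± 2.48), Lmo2 (47.3 ± 2.08), Nfe2 (45.1 ± 10.4), Cbfa2t3 (30.3 ± 4.83) and Tal1 (18.5 ± 2.40) came next, and Gata2 was last at 1.83 ± 0.117. At this day only Lmo2 and Nfe2, among neighbours in the order, overlapped between replicates. All but Gata2 were above the median of 12229 genes with a length, 7.85 CPM per kilobase, and Gata2 was above 22.1% of them.

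At day 2 the upper 4 had drawn together, with Gata1 at 114.4 ± 4.29, Zfpm1 at 114.0 ± 2.68, Ldb1 at 110.4 ± 1.12 and Klf1 at 110.2 ± 8.04 CPM per kilobase. Gata1 overlapped Zfpm1, and Ldb1 overlapped Klf1. Tal1 had moved up to 48.9 ± 4.13, beside Tcf3 at 45.1 ± 0.359, while Cbfa2t3 (23.1 ± 0.803), Lmo2 (22.3 ± 1.58) and Nfe2 (21.0 ± 0.702) could not be ordered beyond their spread, each overlapping the next. Gata2 stood at 1.15 ± 0.0192.

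At day 4 Zfpm1 led at 192 ± 1.73 CPM per kilobase, above Ldb1 (138 ± 0.289) and Gata1 (138 ± 0.756), which overlapped, and Klf1 (112 ± 0.739). Tal1 followed at 70.2 ± 7.96, then Tcf3 at 36.7 ± 1.42, Nfe2 at 31.5 ± 0.245, Cbfa2t3 at 25.0 ± 3.35, Lmo2 at 17.9 ± 0.670 and Gata2 at 2.00 ± 0.0855. Zfpm1 was then above 99.1% of the genes with a length. The place of Cbfa2t3 depends on the transcript: NM_009824 spans 7645 exonic bases, and the shorter NM_001109873 (2867 bases), with a count within 3.54%, would give 77.8, 60.1 and 64.1 CPM per kilobase on the 3 days. The deposited counts give each transcript nearly all reads of its gene, so they do not tell which length applies.

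**Figure D3:**
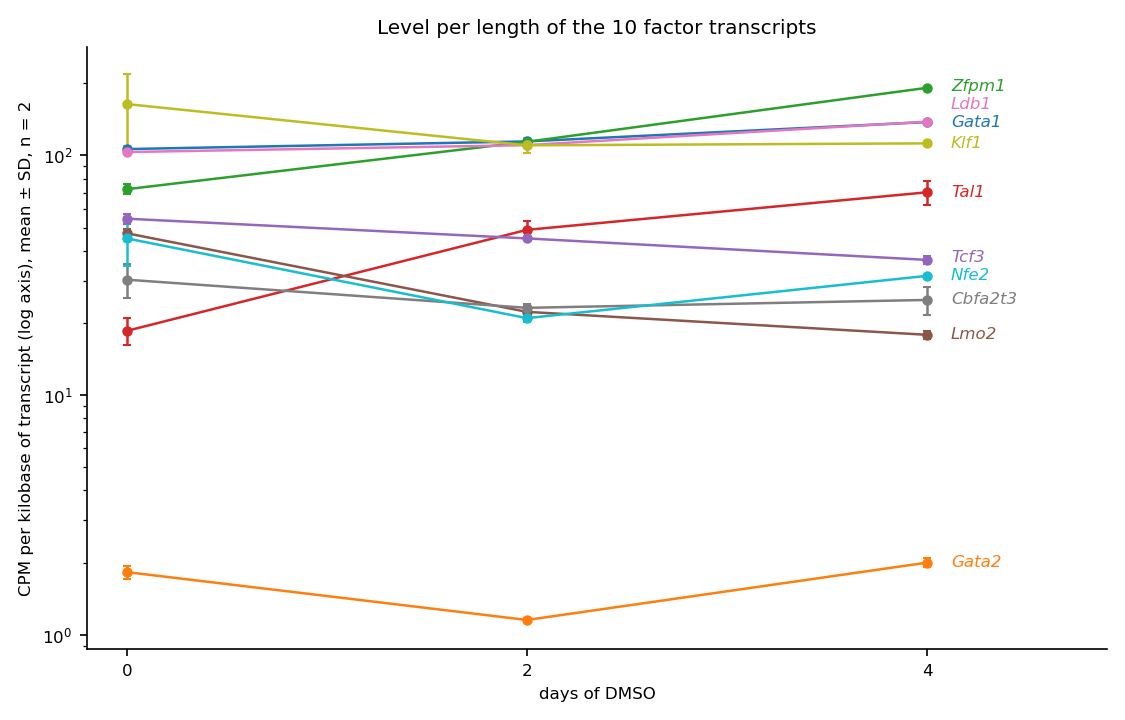
Mean level of the 10 factor transcripts in CPM per kilobase of exon (log axis) by days of DMSO, with bars of 1 SD over 2 libraries. Zfpm1 moves from the fourth place to the first and Tal1 from 18.5 to 70.2 CPM per kilobase, Lmo2 drops to 17.9, and Gata2 stays near 1 to 2.

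Because subunits of the complex moved in opposite directions, their ratio within a library moved further than either. Per length, Tal1 was below Lmo2 at day 0, with ratios of 0.415 and 0.367, and above it later, with 1.97 and 2.45 at day 2 and 3.72 and 4.14 at day 4. Ldb1 exceeded Lmo2 by 2.1 and 2.27 times at day 0 and by 7.97 and 7.54 times at day 4. Tcf3 exceeded Tal1 by 2.60 and 3.34 times at day 0, and the ratio was 0.552 and 0.497 at day 4. None of these ratios overlapped between any 2 days. They compare transcripts and say nothing of protein.

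The ratio of Gata1 to Zfpm1 went from 1.42 and 1.53 at day 0 to 0.721 and 0.718 at day 4. Gata1 exceeded Gata2 by 55.5 and 61.2 times at day 0, 95.5 and 103 times at day 2 and 70.8 and 67.1 times at day 4, with no overlap between days. Klf1 to Gata1 was 1.19 and 1.90 at day 0, which spans more than the gap to day 2, at 0.938 and 0.987, and was 0.822 and 0.809 at day 4.

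**Figure D4:**
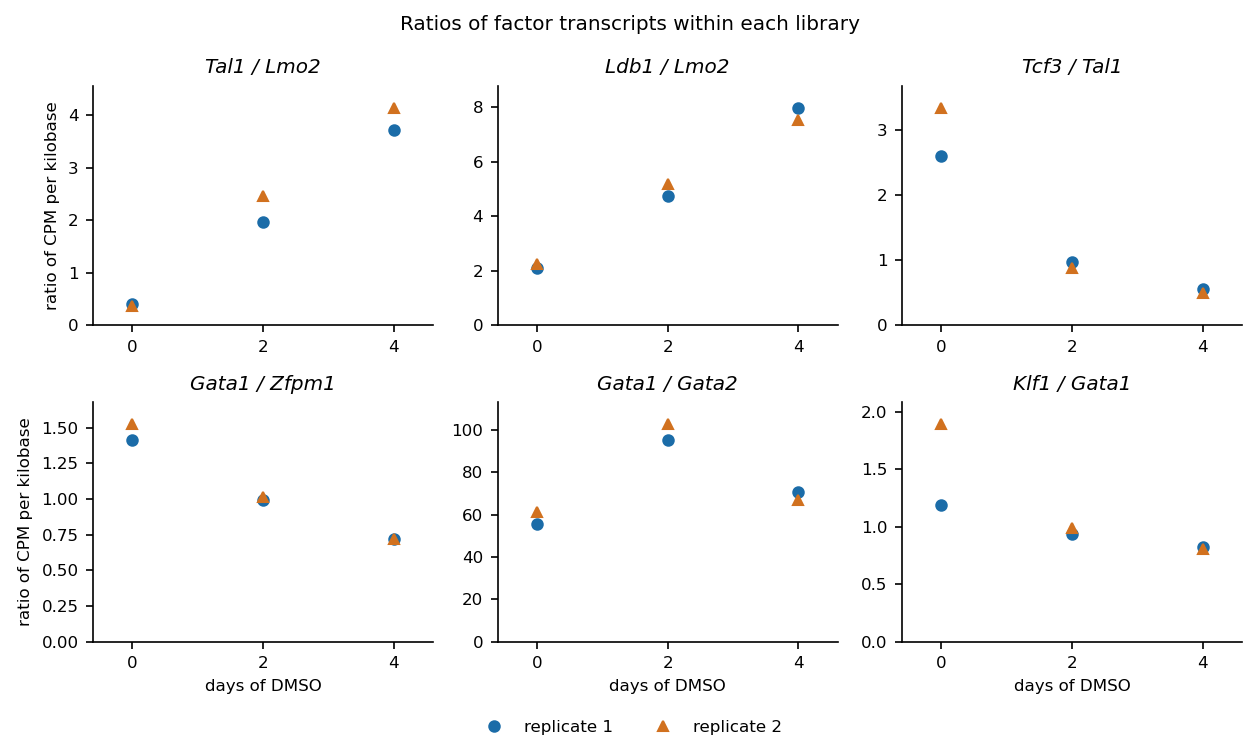
Ratio of the CPM per kilobase of 2 factor transcripts within each library (vertical axes from 0, each with its own scale) by days of DMSO, with a symbol per replicate. Tal1 to Lmo2 goes from 0.415 and 0.367 to 3.72 and 4.14, and the day 0 replicates of Klf1 to Gata1 stand at 1.19 and 1.90.

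Partners, cofactors and target genes were followed in 8 lists of 84 genes, 70 of them tested. In all, the first step had 45 of these called (24 higher, 21 lower, or 31 higher and 14 lower with total counts), the second 29 (20 higher, 9 lower), and the net comparison of day 4 with day 0 had 49 (28 higher, 21 lower). That is 64.3%, 41.4% and 70.0% of those tested, beside 62.5%, 30.3% and 71.8% of all genes. The number for day 2 to day 4 was between 11 (without day 2 replicate 1) and 37 with 1 library left out.

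Other GATA and FOG genes were scarce. Gata4, Gata5, Gata6, Zfpm2 and Trps1 had 0 counts in all libraries, and Gata3, the only one tested, was not called (log2 fold change -0.30 for day 4 against day 0). Among E proteins, other TAL family genes and ID inhibitors, 3 of 6 tested were lower at day 4 than at day 0 and 0 higher (median -0.45). Lyl1, the closest relative of Tal1, measured 84.3 ± 6.27, 22.7 ± 0.963 and 22.0 ± 5.06 CPM on days 0, 2 and 4 (SD, n = 2), a log2 fold change of -1.93 ± 0.15 (adjusted p = 8.8e-07), while Tal1 rose. Id1, which binds E proteins and keeps them off DNA, went from 69.3 ± 37.6 to 4.46 ± 0.996 and 3.42 ± 0.290 CPM (-4.34 ± 0.34, adjusted p = 9.13e-07).

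Among other LMO, LDB and SSBP adaptors, 3 of 5 tested were called at day 4 against day 0, 2 higher and 1 lower (median -0.13). That is 60%, beside 71.8% of all genes. Ssbp2 and Ssbp3, which bind LDB1 and protect it from turnover, rose by 1.11 ± 0.15 (adjusted p = 3.96e-05) and 0.71 ± 0.11 (adjusted p = 0.000166) on the log2 scale. Lmo4, a relative of Lmo2, fell by 0.38 on that scale (standard error 0.12, adjusted p = 0.0137). Lmo1, Lmo3 and Ldb2 had 0 counts.

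The NF-E2 partners and relatives moved in both directions, with 4 of 7 tested higher and 2 lower at day 4 than at day 0 (median 0.43). That is 85.7% called, beside 71.8% of all genes. Among small MAF genes, whose products pair with p45, Mafk rose by 0.53 ± 0.11 (adjusted p = 0.00152). Mafg fell and then rose, as Nfe2 did, at -1.24 ± 0.16 for the first step (adjusted p = 6.95e-05), 0.63 ± 0.16 for the second (adjusted p = 0.015) and -0.62 ± 0.16 in all (adjusted p = 0.00484). Maff fell by 2.20 on the log2 scale (standard error 0.43, adjusted p = 0.000717) from 4.53 ± 3.0 CPM. Bach2, a repressor that also pairs with small MAF proteins, measured 0.488 ± 0.136, 2.51 ± 0.475 and 1.46 ± 0.214 CPM on days 0, 2 and 4. It rose in the first step (2.33 ± 0.29, adjusted p = 4.69e-05) and fell in the second (-0.79 ± 0.25, adjusted p = 0.037). Its net change was 1.54 ± 0.31 (adjusted p = 0.000847).

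Of 17 corepressor subunits tested, 4 were higher and 7 lower at day 4 than at day 0 (median -0.02). That is 64.7% called, beside 71.8% of all genes. Gfi1b, a repressor that works with the LSD1 demethylase, rose by 0.84 ± 0.11 (adjusted p = 3.44e-05) and its CoREST partner Rcor1 by 0.62 ± 0.10 (adjusted p = 0.000207). The NuRD subunits Rbbp7 and Mbd3, members of a complex that FOG1 recruits, had the largest falls, with log2 fold changes of -2.06 ± 0.20 (adjusted p = 3.61e-06) and -1.26 ± 0.11 (adjusted p = 1.63e-06). The day 0 libraries of Rbbp7 lay apart (433 ± 151 CPM). Of the other NuRD subunits, Hdac1, Hdac2, Mta2, Rbbp4 and Gatad2a were also lower. Gatad2b was higher (0.37 ± 0.12, adjusted p = 0.0191), and Chd4, Mta1, Mta3 and Mbd2 were not called. Of 8 coactivators, 2 were higher and 0 lower (median 0.18), so 25% were called, beside 71.8% of all genes. The 2 were the acetyltransferases Ep300 (0.87 ± 0.11, adjusted p = 2.79e-05) and Crebbp (0.82 ± 0.11, adjusted p = 4.79e-05), which acetylate GATA1 and KLF1.

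Of 21 erythroid target genes tested, 16 were higher and 3 lower at day 4 than at day 0 (median 1.75). That is 90.5% called, beside 71.8% of all genes, of which 35.5% were higher and 36.4% lower. Slc4a1, the anion exchanger band 3, went from 0.231 ± 0.0150 to 40.4 ± 9.86 CPM (log2 fold change 7.42 ± 0.28, adjusted p = 9.69e-09), and the adult beta-globin gene Hbb-bs from 41.8 ± 14.6 to 5035 ± 93.7 CPM (6.91 ± 0.27, adjusted p = 1.24e-08). Hbb-bs shares reads with its near copy, so its level is uncertain. Among those that fell were Bcl11a, the repressor of fetal globin (-1.62 ± 0.16, adjusted p = 4.95e-06), and Add2, a membrane skeleton subunit (-1.18 ± 0.12, adjusted p = 4.54e-06).

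All 5 tested progenitor genes listed as repressed by GATA1 were lower at day 4 than at day 0, beside 36.4% of all genes. The list was written with earlier results of these data known. It leaves out Gata2, the GATA factor of stem and progenitor cells, which was not lower (0.13 ± 0.15, adjusted p = 0.434, edgeR). Myb, which keeps progenitors dividing, went from 385 ± 20.1 to 103 ± 16.9 and 29.4 ± 5.82 CPM (log2 fold change -3.72 ± 0.17, adjusted p = 2.7e-08). Spi1, which encodes PU.1, a factor that binds GATA1 and whose gene is switched on by provirus insertion in Friend virus erythroleukemia, went from 109.6 ± 14.8 to 11.9 ± 0.172 and 8.74 ± 2.96 CPM (-3.66 ± 0.20, adjusted p = 9.11e-08). Kit, the stem cell factor receptor and a gene chosen here after its values were seen, had 23 and 24 counts at day 0, 2 and 2 at day 2, and 0 at day 4, which is at least 7.01-fold lower with 3 counts per library as the floor. The median of the list was -3.66 as fitted and -2.81 with Kit at that bound.

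**Figure D5:**
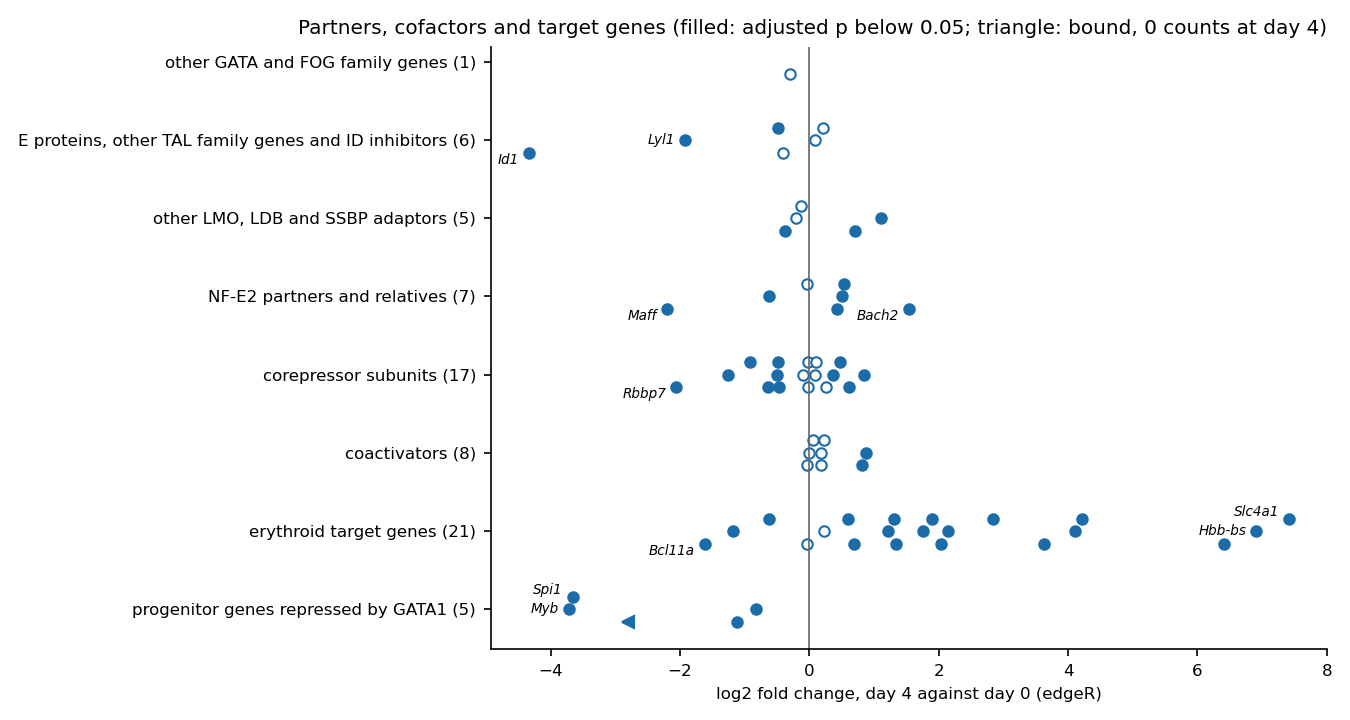
Log2 fold change for day 4 against day 0 (horizontal axis) of the 70 tested partner, cofactor and target genes, 1 row per list with the number tested, with filled symbols at an adjusted p below 0.05 and a triangle for the bound of Kit, at 0 counts on day 4. Erythroid targets reach 7.42 (Slc4a1) and progenitor genes -3.72 (Myb), while cofactors lie mostly between -1 and 1.

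Genes with the profile most like each factor were ranked by the root mean square difference of log2 CPM (pseudocount 0.5), each gene centred on its own mean over the 6 libraries, among 10993 genes. For Gata1 they were Anks1 and Fars2, and for Ldb1 Fars2 and Zdhhc5, all at a difference of 0.02, and 3567 and 3321 genes lay within 0.25 of these flat profiles. Zfpm1 was nearest to Pnpla2 and Dapk2 (both 0.04, with 914 genes within 0.25). Tal1 was close to Ulk1 (0.05), with 408 genes within 0.25. Lmo2 was nearest to Vdac2 (0.05) and Bri3bp (0.06), and Tcf3 to E2f1 (0.01) and Parp2 (0.03).

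Nfe2 was nearest to Gm38431 and Lgals9 (both 0.08), with 276 genes within 0.25, and Gata2 to Treml2 (0.05) and Midn (0.06), with 586. Klf1 was nearest to Ralb (0.03) and Cdkn2d (0.05), and Cbfa2t3 to Rps10 and Prkca (both 0.06). The profiles of Klf1 and Cbfa2t3 include the gap between their day 0 libraries.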

How the data were processed

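MEL cell RNA was sequenced as stranded mRNA libraries. Per the submitters' processing notes, the authors used cutadapt, TopHat, HTSeq and DESeq2 with mm10. The authors deposited unnormalized read counts per RefSeq transcript and library, 32654 transcripts in all. The annotation release and the use of strand in counting are not given in the sources used here. Reads on no feature were left out, at 50.5% to 58.4% of their sum with the counts on transcripts. A read can count for several transcripts of a gene there, so this is not a share of a library. The transcripts of the 10 genes shared no exonic base with a transcript on the other strand.

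Symbols came from RefSeq and GENCODE tables (268 transcripts had none), positions and exonic lengths from GENCODE vM21 and promoters from RefSeq, both GRCm38. Counts were tested with edgeR 4.0.16 in R 4.3.3 (TMM, filterByExpr by day, glmQLFit and glmQLFTest over all 6 libraries, 1 mean per day, Benjamini-Hochberg over 18351 transcripts), and each gene was read from its transcript with the highest mean count. The precision rests on 2 libraries per day. The steps were tested on simulated counts with known changes. Few transcripts were changed there, equally in both directions, so the simulation does not test the scaling where most genes change.

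The 10 genes and all lists were chosen with earlier results of these data known. Named were all 10, the 2 largest called rises and falls of each list for day 4 against day 0 with a mean of at least 1 CPM, the 2 genes most alike in profile, and marker genes; some genes are not reported here. Alternatives were DESeq2 1.42.0, relative log expression factors, total counts, scaling without globin transcripts, no filter, summed counts per gene, only the 2 days compared, a replicate block, a log2 fold change of at least 1 and leaving out each library. Levels on each other transcript were added after the data were seen.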

Additional observations from a re-analysis of the deposited data

How the results depend on the processing

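Of 450 alternative values of the 30 log2 fold changes of the 10 factors, 375 kept direction and call, 65 kept the direction but missed the threshold, 7 kept it and passed the threshold, and 3 changed sign. Those 3 were differences between day 4 and day 2 that were not called: Klf1 with total counts (-0.06) and without day 2 replicate 1 (-0.05), and Cbfa2t3 without day 4 replicate 1 (-0.04). With 1 library left out these differences ranged from -0.05 to 0.10 for Klf1 and from -0.04 to 0.24 for Cbfa2t3. With a limit of 1 on the size of the log2 fold change, 3, 0 and 3 factors and 23, 8 and 27 list genes were called for day 2 against day 0, day 4 against day 2 and day 4 against day 0. With 1 library left out, the factors called ranged from 5 to 8, 1 to 8 and 6 to 9, and the list genes from 36 to 48, 11 to 37 and 46 to 51. The fits with fewer libraries have fewer degrees of freedom. Of 132 alternative levels per length, 41 moved by more than 1 SD of the replicates. Leaving out 1 of 2 libraries always moves their mean by less than 1 SD. Those alternatives are among the 132 but could not count as moved. Same-numbered replicates deviated together little (correlation of deviations 0.0341, 0.0298 and 0.117 for the 3 pairs of days). The labels do not say whether same-numbered libraries share a culture, and these values cannot decide it. With the replicate number as a block, 11564, 5578 and 13246 transcripts were called, against 11639, 5684 and 13268 without it. Under the block the second steps of Lmo2 (adjusted p = 0.0571) and Tcf3 (0.0507) were not called. With 2 libraries per day, the spread within a day rests on little.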

Other observations

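Genes of megakaryocytes, the sister lineage that also depends on GATA1, FOG1, TAL1 and NF-E2, moved in both directions. Itga2b, the integrin subunit CD41, went from 218 to 207 and 568.5 mean CPM on days 0, 2 and 4 and was higher at day 4 than at day 0 (log2 fold change 1.38 ± 0.13, adjusted p = 2.39e-06, edgeR). Vwf, the gene of von Willebrand factor, rose mainly in the first 2 days, by 3.46 ± 0.20 (adjusted p = 2.83e-07). The platelet genes Pf4 and Gp5 were lower at day 4 than at day 0, at -2.39 ± 0.16 (adjusted p = 3.18e-07) and -3.30 ± 0.21 (adjusted p = 1.94e-07). The platelet genes Gp1ba and Gp9 were higher, at 2.51 ± 0.24 (adjusted p = 3.89e-06) and 0.66 ± 0.24 (adjusted p = 0.0292). Of 9 markers tested, 4 were higher and 5 lower.

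The gap between the day 0 libraries was unequal over the 10 factors. Replicate 2 exceeded replicate 1 by 0.68 for Klf1, 0.47 for Nfe2 and 0.33 for Cbfa2t3 on the log2 scale, was below it by 0.26 for Tal1 (log2 ratio -0.26), and the size of the gap was at most 0.12 for Gata1, Gata2, Zfpm1, Tcf3, Lmo2 and Ldb1, where the median size over all genes was 0.18.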
